A study of Mus musculus with 8 samples.

Results

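The ATF4 integrated stress response genes examined here are a fixed list of 10: Atf4, Atf5, Ddit3, Trib3, Asns, Chac1, Ppp1r15a, Slc7a11, Slc7a5 and Slc3a2. They were taken by name from the 21444 genes that the transcript identifiers of the 8 libraries gave, each gene being represented by the best-counted of its transcripts. Counts were found for 9 of the 10, and 7 of these passed the filter on low counts that left 10990 genes for testing. RNA was measured in primordial germ cells, from which sperm and eggs later form, at embryonic day 11.5, on a mixed C57BL/6 and 129 background. The 4 Prmt5 KO libraries came from Blimp1Cre;Prmt5flox/flox embryos, and the 4 Control libraries from Blimp1Cre;Prmt5flox/+ embryos. Both groups therefore carried Cre recombinase driven by Blimp1, and the Control kept a single intact copy of Prmt5, which encodes an arginine methyltransferase. All cells carried the dPE_Oct4 GFP reporter of germ cells and were taken by flow sorting. Each library started from 50 pg of RNA, and separate embryos are not stated for the libraries of a group, so p-values measure the spread between libraries, which may be partly technical.

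In the integrated stress response, the kinases that sense amino acid shortage, misfolded protein, double-stranded RNA or haem shortage phosphorylate the translation factor eIF2. General protein synthesis then falls, while the mRNA of the transcription factor ATF4 is translated more, because of the upstream open reading frames in its leader. ATF4 pairs with C/EBP proteins on DNA and switches on genes for amino acid supply, for the transcription factor CHOP and for the phosphatase subunit GADD34, which reverses the phosphorylation. The mRNA level of Atf4 therefore need not follow the amount of its protein, which was not measured here.

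The sequence that ATF4 and its C/EBP partners bind was looked up first, because it marks which of the 10 genes carry a match near their start. The core TGATGNAAN was searched on both strands in RefSeq promoter windows on GRCm38.p6, from 250 bases before to 50 bases after each start. Such a window was at hand for 9 of the 10 genes, and no window was available here for Slc7a5. Matches were found for 4 of these 9 genes, Asns, Trib3, Slc7a11 and Chac1, while 3.95% of all 32851 windows held one. Its special case ATTGCATCA (the other strand of TGATGCAAT) was in none of the members' windows and in 0.192% of all, and CACGTG was in none of them and in 7.15% of all. TGACGTCA, the cyclic AMP response element, was added to the search after the letters were read; Ppp1r15a held it, as did 1.79% of all windows. Windows around the matches are shown on the strand of the gene, with the matched letters in capitals. The whole window is shown for Asns, the most abundant gene of the list, with its match 23 bases before the start (chr6:7693160-7693459, minus strand), and for Ppp1r15a, the gene with the largest fold change, with its match 12 bases before the start (chr7:45526219-45526518, minus strand). The shorter windows are those of Trib3 (chr2:152344019-152344067, minus strand, the match beginning 14 bases after the start), Slc7a11 with 2 matches (chr3:50443633-50443699, minus strand) and Chac1 (chr2:119351028-119351076, plus strand).
Asns: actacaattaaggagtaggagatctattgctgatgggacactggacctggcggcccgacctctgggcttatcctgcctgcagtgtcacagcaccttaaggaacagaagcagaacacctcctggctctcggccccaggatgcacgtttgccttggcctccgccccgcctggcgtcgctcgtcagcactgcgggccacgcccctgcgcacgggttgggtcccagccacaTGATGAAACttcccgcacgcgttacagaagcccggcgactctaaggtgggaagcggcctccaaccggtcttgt
Ppp1r15a: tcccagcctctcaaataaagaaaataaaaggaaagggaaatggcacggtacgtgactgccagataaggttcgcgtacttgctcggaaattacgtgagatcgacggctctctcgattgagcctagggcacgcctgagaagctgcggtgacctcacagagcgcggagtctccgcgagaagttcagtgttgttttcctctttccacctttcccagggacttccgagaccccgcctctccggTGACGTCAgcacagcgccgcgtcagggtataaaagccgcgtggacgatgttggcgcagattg
Trib3: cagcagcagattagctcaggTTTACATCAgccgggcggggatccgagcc
Slc7a11: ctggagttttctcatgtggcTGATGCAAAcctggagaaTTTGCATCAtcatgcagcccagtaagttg
Chac1: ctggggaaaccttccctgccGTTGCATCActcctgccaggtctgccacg
A match describes these letters only. The windows of Atf4, Atf5, Ddit3 and Slc3a2 held none of the motifs searched, which says nothing about binding there.

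The libraries were examined before the results. Gene counts totalled 4318972 to 6549504 in Prmt5 KO and 1811428 to 5844441 in Control, where Control 2 and 3 were the shallowest. The deleted gene went the way of the labels: Prmt5 averaged 35.5 ± 6.49 CPM in Prmt5 KO and 138 ± 40.6 CPM in Control (SD, n = 4 each; CPM, read counts scaled to a common library size after TMM scaling; edgeR adjusted p = 0.0389), and the groups did not overlap. That call held without Control 1 (adjusted p = 0.0198) but on leaving out any other single library the adjusted p was 0.0578 to 0.234 (edgeR), with log2 fold changes from -1.54 to -2.25 over the 19 alternatives. Germ cell markers were present throughout, with a summed level over the 16 listed of 3861 to 5095 CPM in Prmt5 KO and 3959 to 4624 CPM in Control. Of those markers Kit was at 1060 ± 69.2 CPM in Prmt5 KO and 1005 ± 102 CPM in Control (SD, n = 4 each). Prmt5 KO 4 and Prmt5 KO 1 stood apart in multidimensional scaling, Prmt5 KO 4 at -2.69 on the first axis (0.21 to 0.86 for the others) and Prmt5 KO 1 at -2.26 on the second. The 14 markers of somatic gonad and mesonephros summed to 777 CPM in Prmt5 KO 1, against 176 to 216 CPM in the other Prmt5 KO libraries and 139 to 218 CPM in Control. Outside Prmt5 KO 1 the marker Mfge8 made up most of that sum. Results that rest on Prmt5 KO 1 and 4 are therefore also given without them.

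None of the 7 tested genes passed an adjusted p of 0.05 in either direction in edgeR's quasi-likelihood test, in which 3 of 10990 genes (0.0273%) passed, 0.0182% higher and 0.00910% lower. DESeq2 and limma voom also called 0 of the 7. At an unadjusted p under 0.05 there was 1 of 7, Ppp1r15a, against 8.15% of all genes tested. The median log2 fold change of the 7, Prmt5 KO over Control, was 0.018, beside 0.028 over all genes tested. The list did not lie uniformly near 0: Asns, Atf4, Slc3a2 and Slc7a5, the abundant genes, had log2 fold changes between -0.21 and 0.15, whereas Ppp1r15a was at 1.65 and Ddit3 at 1.12. In bulk RNA, fewer cells of a type and less RNA per cell cannot be told apart.

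**Figure D1:**
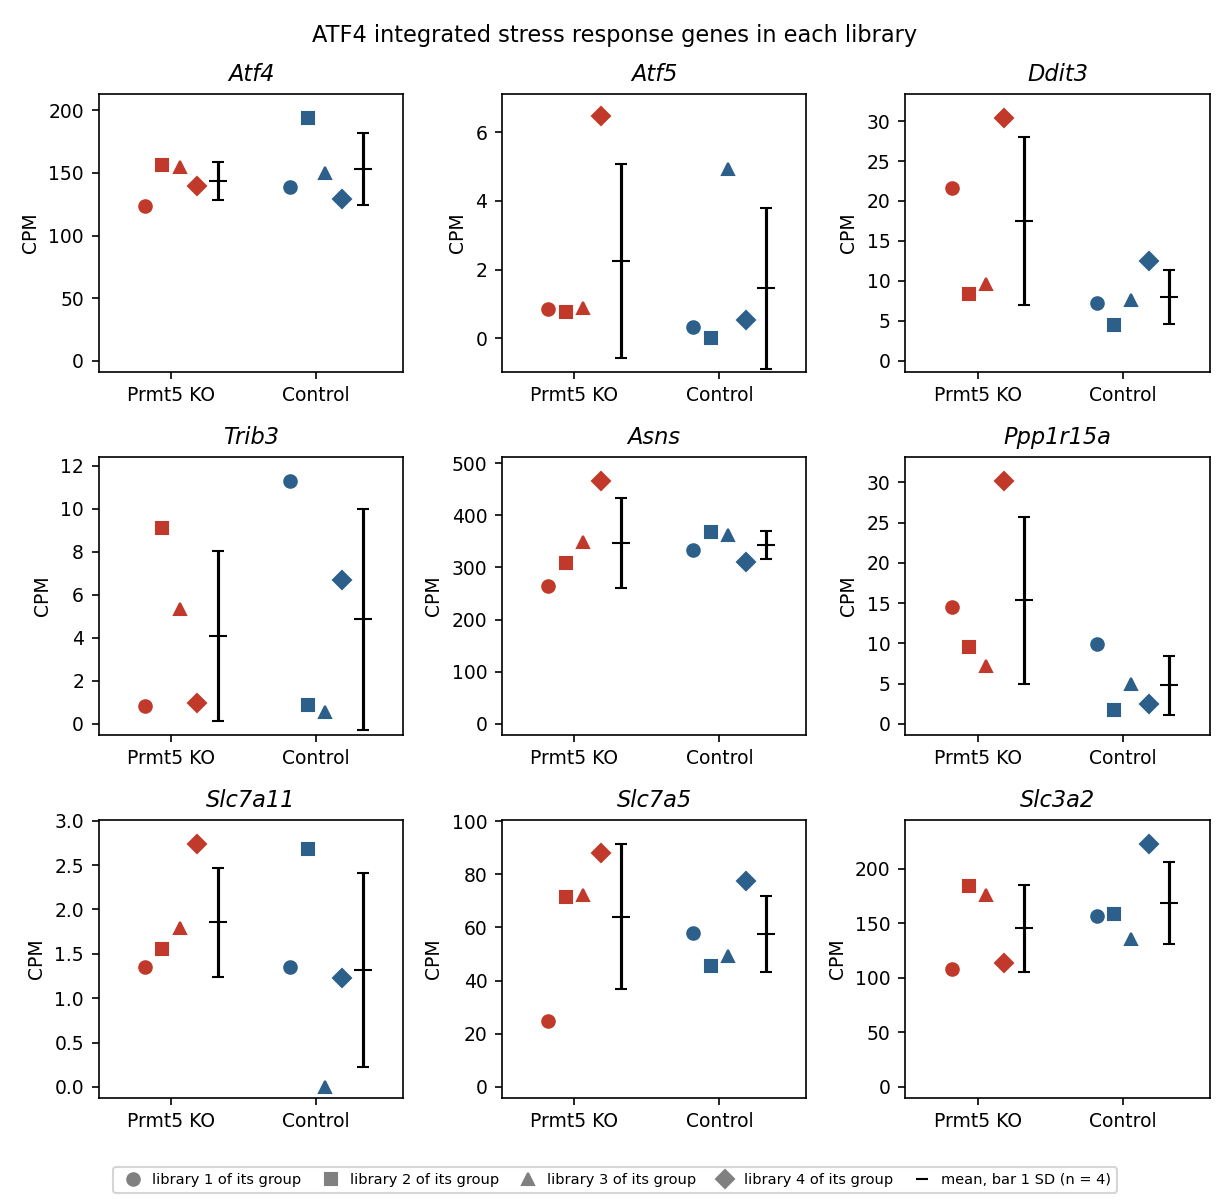
Level in CPM (vertical axis, own scale per gene) of the 9 genes with counts in each of the 4 Prmt5 KO libraries (red, left) and the 4 Control libraries (blue, right); symbols mark the library number, the dash is the mean and the bar 1 SD. For Ddit3 and Ppp1r15a the highest points are Prmt5 KO 4 (30.4 and 30.2 CPM) and Prmt5 KO 1 (21.6 and 14.5 CPM), and in every gene the groups overlap.

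Among the transcription factors, Atf4, the central factor of the response, was abundant and even across the libraries. It was at 124, 156, 155 and 139.8 CPM in Prmt5 KO 1 to 4, and at 139, 194, 150.3 and 129 CPM in Control 1 to 4. The Prmt5 KO libraries lay within the span of the Control except Prmt5 KO 1, which was the lowest of the 8. Its log2 fold change was -0.087 (95% interval -0.49 to 0.32; edgeR adjusted p = 0.954), an interval that ends at a 1.24-fold higher level. Of the 3 annotated Atf4 transcripts 1 had counts, the 3-exon transcript of 1725 bases (chromosome 15, 80255184 to 80257541 for the gene on GRCm38, plus strand).

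Ddit3 encodes CHOP, the factor that ATF4 switches on under prolonged stress and that promotes cell death. It was at 21.6, 8.33, 9.67 and 30.4 CPM in Prmt5 KO 1 to 4, and at 7.27, 4.46, 7.68 and 12.5 CPM in Control 1 to 4. Prmt5 KO 1 and 4 lay above every Control library, while Prmt5 KO 2 and 3 lay inside the Control span. The mean was 17.5 ± 10.5 CPM in Prmt5 KO and 7.98 ± 3.33 CPM in Control (SD, n = 4 each). The log2 fold change was 1.12, standard error 0.589 (95% interval -0.16 to 2.39; edgeR adjusted p = 0.672), and all 4 Prmt5 KO libraries were above the Control mean. Without Prmt5 KO 1 and 4 the log2 fold change was 0.16 (edgeR adjusted p = 0.981). Without Prmt5 KO 1 alone, the library with the high somatic markers, it was 1.00, and without Prmt5 KO 4 alone 0.71.

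A shorter Ddit3 transcript of 3 exons had 76, 23, 26 and 91 counts in Prmt5 KO 1 to 4, and 24, 7, 9 and 40 counts in Control 1 to 4, so the same libraries were high. As a percent of the 4-exon transcript it was at 56.9 ± 14.3 in Prmt5 KO and 61.6 ± 6.81 in Control (SD, n = 4 each). Part of the Ddit3 count is uncertain, since 68 of the 890 bases of the transcript used overlap exons of Mars on the opposite strand and no source used here gives the strand setting of the counting. A second annotated gene of the same name, which shares 105 bases on the same strand, had no counts (chromosome 10, 127290774 to 127296288 for Ddit3 itself, plus strand).

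Atf5, a relative of ATF4 that is also controlled by translation, was scarce and did not pass the filter. It had 5, 4, 6 and 26 counts in Prmt5 KO 1 to 4, and 2, 0, 9 and 3 counts in Control 1 to 4. A single library was high in each group, Prmt5 KO 4 at 6.48 CPM (exact Poisson 95% interval 4.23 to 9.49) and Control 3 at 4.94 CPM (2.26 to 9.37), and the other libraries of either group were below 1 CPM. These intervals cover counting error only, because reads amplified from so little RNA are not independent molecules. In the fit with no filter the log2 fold change was 0.80 (95% interval -1.7 to 3.3; edgeR adjusted p = 0.842).

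Feedback on the pathway comes from Ppp1r15a and Trib3, while Chac1 is a late target. Ppp1r15a encodes GADD34, the stress-induced subunit that brings a phosphatase to eIF2. It was at 14.5, 9.5, 7.14 and 30.2 CPM in Prmt5 KO 1 to 4, and at 9.97, 1.79, 4.94 and 2.46 CPM in Control 1 to 4. As with Ddit3, Prmt5 KO 4 and then Prmt5 KO 1 were the highest of the 8 libraries; among all genes tested 6.95% had these as their 2 highest libraries. Control 1 lay above Prmt5 KO 2 and 3, so the groups overlapped. The mean was 15.3 ± 10.4 CPM in Prmt5 KO and 4.79 ± 3.71 CPM in Control (SD, n = 4 each), and the log2 fold change was 1.65, standard error 0.712 (95% interval 0.11 to 3.18). Its unadjusted p was 0.0376 and its adjusted p 0.58 (edgeR). All 4 Prmt5 KO libraries were above the Control mean. Its fold change on the log2 scale was 0.77 without Prmt5 KO 1 and 4, 1.67 without Prmt5 KO 1 alone and 1.09 without Prmt5 KO 4 alone, and it reached 2.34 without Control 1.

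Ppp1r15a is also a gene that cell dissociation and serum can switch on, so the list of dissociation genes was set beside it. The 12 with counts summed to 149.8 CPM in Prmt5 KO 1, 163 CPM in Prmt5 KO 4 and 156 and 138 CPM in Prmt5 KO 2 and 3, against 140.3 to 202 CPM in Control. Of the 9 tested, 0 passed in edgeR, also 0 at an unadjusted p under 0.05. The sum of each Prmt5 KO library was mostly Dusp1 and Ier2, and single genes differed from it. Jun, named after its values were seen, was at 1.52, 1.36, 3.87 and 24.7 CPM in Prmt5 KO 1 to 4, and at 1.18 to 2.19 CPM in Control, so it was highest in the library where Ppp1r15a was highest. Fos, also named after its values were seen, was at 0.388 to 0.748 CPM in Prmt5 KO and 1.34 to 11.5 CPM in Control, with no overlap. Among all genes tested 2.27% were lower with no overlap, and Fos had only 2 to 3 counts per Prmt5 KO library and 3 in Control 2. Neither Jun nor Fos passed the filter. In the fit with no filter the adjusted p was 0.491 for Jun and 0.373 for Fos (edgeR). The part of dissociation genes in the Ppp1r15a values was not tested. Klf4 and Egr1, the 2 tested with the smallest p, were at log2 fold changes of -1.47 and -0.46 (edgeR adjusted p = 0.681 and 0.905). Both counted Ppp1r15a transcripts gave nearly the same values, 99 ± 2.07% of the one used in Prmt5 KO (SD, n = 4), and the gene lies on chromosome 7 at 45522916 to 45526268, minus strand.

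Trib3 encodes a pseudokinase that dampens ATF4 and CHOP activity. It was at 0.844, 9.11, 5.36 and 0.997 CPM in Prmt5 KO 1 to 4, and at 11.3, 0.893, 0.549 and 6.68 CPM in Control 1 to 4. The libraries fell into high and low ones within each group: Prmt5 KO 2 and 3 and Control 1 and 4 were high, and the remaining 4 were below 1 CPM. The exact Poisson 95% interval was 0.274 to 1.97 CPM in Prmt5 KO 1 and 6.69 to 12.1 CPM in Prmt5 KO 2. As for Atf5, these intervals cover error in counting reads only, and the sampling of starting molecules was not tested. The libraries with the highest Ddit3 and Ppp1r15a, Prmt5 KO 1 and 4, were among the low ones for Trib3. Control 2 and 3, the other low libraries, were also the shallowest and held 2 and 1 counts of it. The log2 fold change was -0.31 (95% interval -2.41 to 1.79; edgeR adjusted p = 0.971), and it was -1.05 without Prmt5 KO 2 and 0.49 without Control 1, so single libraries set its direction.

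Chac1 encodes an enzyme that breaks down glutathione and is a late target of ATF4 and CHOP. Its 1 annotated transcript has no entry in any of the 8 libraries, whose lists leave out uncounted transcripts, and no level is given for it.

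**Figure D2:**
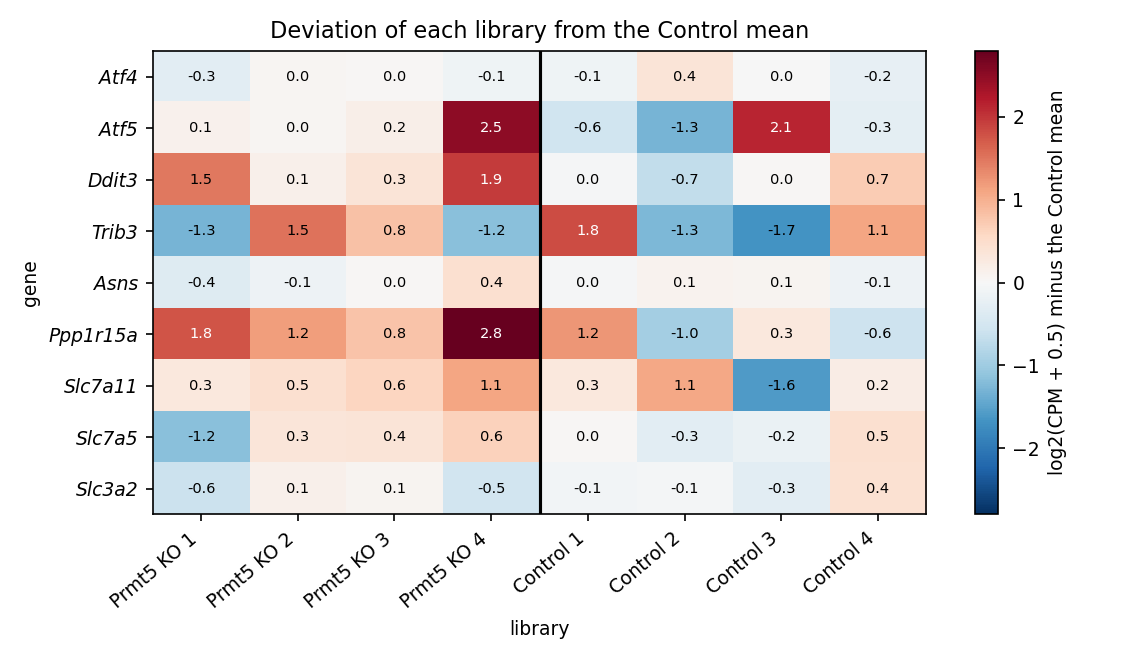
Deviation of each library (columns, Prmt5 KO left of the line, Control right of it) from the Control mean, in log2(CPM + 0.5), for the 9 genes with counts (rows). Prmt5 KO 4 stands at 2.50 for Atf5, 1.95 for Ddit3 and 2.79 for Ppp1r15a, but at -1.16 for Trib3; Prmt5 KO 1 is at 1.47 for Ddit3 and -1.18 for Slc7a5.

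Amino acid supply genes form the rest of the list. Asns, which makes asparagine and is a classical marker of ATF4 activity, was the most abundant of all. It was at 265, 309, 349.5 and 466 CPM in Prmt5 KO 1 to 4, and at 334, 367, 362 and 309.8 CPM in Control 1 to 4. The Prmt5 KO libraries lay on both sides of the Control, with Prmt5 KO 4 the highest and Prmt5 KO 1 the lowest of the 8. The spread was 24.9% of the mean in Prmt5 KO and 7.7% in Control (SD over mean, n = 4 each); that difference in spread was not tested. For Asns the log2 fold change was 0.018 (95% interval -0.35 to 0.39; edgeR adjusted p = 0.991), which spans folds from 0.782 to 1.31. All 7 annotated Asns transcripts had counts, and a second 12-exon transcript was at 92.9 ± 1.71% of the one used in Prmt5 KO and 91.6 ± 1.83% in Control (SD, n = 4 each). Asns lies on chromosome 6 at 7675169 to 7693254, minus strand.

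Slc3a2 and Slc7a5 encode the heavy and light chains of the transporter that brings in leucine and other large neutral amino acids, and Slc7a11 encodes the light chain of the cystine importer, which uses the same heavy chain. Slc3a2 was at 108, 184, 176 and 114 CPM in Prmt5 KO 1 to 4, and at 157, 159, 136 and 223 CPM in Control 1 to 4. Prmt5 KO 1 and 4 were the lowest of the 8 libraries, and Prmt5 KO 2 and 3 lay inside the Control span. The log2 fold change was -0.21 (95% interval -0.71 to 0.28; edgeR adjusted p = 0.859), and 0.09 without Prmt5 KO 1 and 4.

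Slc7a5 was at 24.7, 71.5, 72.3 and 88 CPM in Prmt5 KO 1 to 4, and at 58, 45.5, 49.4 and 77.4 CPM in Control 1 to 4. Prmt5 KO 1 was the lowest of the 8 and Prmt5 KO 4 the highest, so the heavy and light chain genes were low together in Prmt5 KO 1 but not in Prmt5 KO 4. The log2 fold change was 0.15 (95% interval -0.63 to 0.92; edgeR adjusted p = 0.964), and 0.42 without Prmt5 KO 1. In Prmt5 KO 1 the share of mitochondrial counts was also the highest of its group, at 11.3% against 9.01% to 9.29% in the other Prmt5 KO libraries and 9.74% to 11.5% in Control. The part of that library's somatic markers and mitochondrial share in its low Slc7a5 was not tested.

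Slc7a11 was close to the limit of counting. It had 8, 8, 12 and 11 counts in Prmt5 KO 1 to 4, and 8, 6, 0 and 7 counts in Control 1 to 4. The groups overlapped, and no library exceeded 2.74 CPM. In the fit with no filter the log2 fold change was 0.49 (95% interval -1.7 to 2.69; edgeR adjusted p = 0.916), an interval too wide to tell a fall from a rise.

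**Figure D3:**
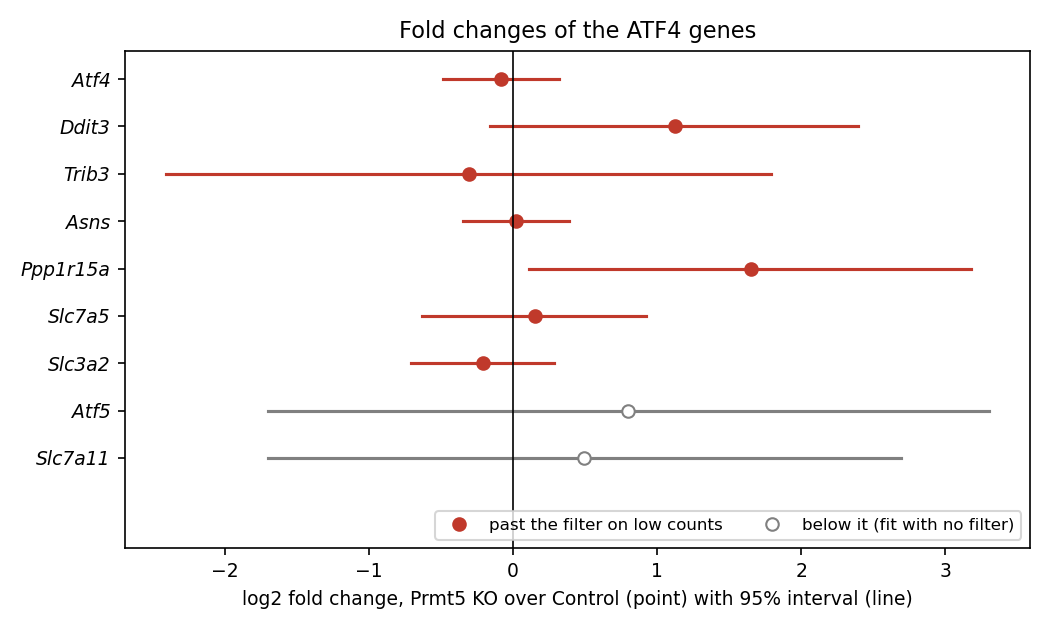
Log2 fold change, Prmt5 KO over Control (points, horizontal axis), with its 95% interval (lines) for the 7 tested genes in red and, from the fit with no filter, the 2 scarcer genes in grey. Of the red intervals that of Ppp1r15a (0.11 to 3.18) is the one that does not include 0, and it did not pass after adjustment over all genes; those of Atf4, Asns, Slc7a5 and Slc3a2 stay inside -0.71 to 0.92.

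Levels of the 9 genes can be ordered per length of the transcript used, in CPM per kilobase. This measure takes reads to be spread evenly along a transcript, which was not checked. Asns came first, at 174 ± 43.2 in Prmt5 KO and 171 ± 13.2 in Control, then Atf4 at 83.4 ± 8.85 in Prmt5 KO and 88.7 ± 16.5 in Control, and Slc3a2 at 51.8 ± 14.2 in Prmt5 KO and 60 ± 13.3 in Control (SD, n = 4 each). Ddit3 was at 19.7 ± 11.8 in Prmt5 KO and 8.96 ± 3.74 in Control, and Slc7a5 at 18.2 ± 7.78 in Prmt5 KO and 16.4 ± 4.04 in Control (SD, n = 4 each). The Atf4 and Slc3a2 ranges overlapped in Control. Ddit3 and Slc7a5 overlapped in both groups, and Ddit3 had the higher mean of the pair in Prmt5 KO and the lower in Control. Ppp1r15a followed at 6.57 ± 4.44 in Prmt5 KO and 2.05 ± 1.59 in Control, Trib3 at 2.01 ± 1.95 in Prmt5 KO and 2.4 ± 2.54 in Control, and Atf5 at 1.24 ± 1.55 in Prmt5 KO and 0.799 ± 1.29 in Control (SD, n = 4 each). Ranges of neighbours in this last run overlapped in both groups, so their order is not settled. Slc7a11 came last at 0.201 ± 0.0668 in Prmt5 KO and 0.143 ± 0.119 in Control (SD, n = 4 each).

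The rest of the pathway was measured with lists that do not contain the 10 genes. Pooled, with the general translation list but without the NRF2 and p53 lists, they hold 133 genes, of which 118 were tested. None passed in edgeR or limma voom, 3 were higher and 8 lower at an unadjusted p under 0.05 (4.47% and 3.69% of all genes tested were), and the median log2 fold change was -0.0056. DESeq2 called 2 of them, Sesn2 and Mthfd2, against 107 of 10990 genes (0.974%). Over all genes tested, 289 (2.63%) were higher and 249 (2.27%) lower in Prmt5 KO with no overlap of the groups. Of the tested genes in the pooled lists, Sesn2 was higher in this way, and Eif2b3, Eif2b4, Mthfd2, Dusp4 and Mtor were lower. Eif2b3 and Mtor are named after their values were seen.

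Upstream, 16 of the 17 genes for eIF2, its kinases and its exchange factor eIF2B were tested, and 0 passed in edgeR, with a median log2 fold change of -0.019; 1 was higher and 2 lower at an unadjusted p under 0.05. The lower ones were subunits of eIF2B, the factor that phosphorylated eIF2 blocks. Eif2b4 was at 56.7, 52.5, 62 and 25.4 CPM in Prmt5 KO 1 to 4, and at 97.5, 111, 73.5 and 95.7 CPM in Control 1 to 4. All 4 Prmt5 KO libraries were below every Control library (log2 fold change -0.94, 95% interval -1.57 to -0.30; edgeR adjusted p = 0.409); 10.1% of its transcript overlaps Snx17 on the opposite strand. Eif2b5 was at 66.4 ± 15.1 CPM in Prmt5 KO and 112 ± 27.5 CPM in Control (SD, n = 4 each; log2 fold change -0.76, edgeR adjusted p = 0.444).

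The kinases and the constitutive phosphatase subunit are named after their values were seen. Eif2ak1, the haem-sensing kinase, had the highest level per length of the 4 kinases, 31.1 CPM per kilobase in Prmt5 KO and 21.4 in Control, and was at 134 ± 21.8 CPM in Prmt5 KO and 92.8 ± 28.7 CPM in Control (SD, n = 4 each; log2 fold change 0.54, edgeR adjusted p = 0.598). Eif2ak3, the endoplasmic reticulum kinase PERK, was at a log2 fold change of -0.73 and Eif2ak4, the amino acid sensor GCN2, at -0.33 (edgeR adjusted p = 0.775 and 0.946). Eif2ak2, the double-stranded RNA sensor, did not pass the filter. Ppp1r15b, the constitutive counterpart of Ppp1r15a, was at 151 ± 24.4 CPM in Prmt5 KO and 137 ± 46.2 CPM in Control (SD, n = 4 each; log2 fold change 0.16, edgeR adjusted p = 0.929).

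Of the 12 listed partners and feedback genes of ATF4, 5 were tested and 0 passed in edgeR, with 1 higher at an unadjusted p under 0.05 and a median log2 fold change of -0.0077. That one was Sesn2, which encodes Sestrin 2, a brake on growth signalling and a target of both ATF4 and p53. It was at 94.4, 62.4, 88.1 and 94.7 CPM in Prmt5 KO 1 to 4, and at 59.7, 25.4, 31.8 and 38.7 CPM in Control 1 to 4. Every Prmt5 KO library was above every Control library (log2 fold change 1.11, 95% interval 0.46 to 1.77; adjusted p = 0.311 in edgeR and 0.0398 in DESeq2). Ddit4, another gene shared by both factors, was at 9.6 ± 4.33 CPM in Prmt5 KO and 4.02 ± 1.56 CPM in Control (SD, n = 4 each; log2 fold change 1.26, edgeR adjusted p = 0.66).

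Most listed partners of ATF4 on DNA were scarce. Cebpg, named after its values were seen, varied widely within both groups, at 33.4 ± 20.8 CPM in Prmt5 KO and 34.6 ± 14.9 CPM in Control (SD, n = 4 each), and Cebpb, Cebpd, Atf3 and Nupr1 did not pass the filter. Nupr1, a small stress-induced chromatin protein downstream of ATF4, was named after its values were seen: it was at 36.9 CPM in Prmt5 KO 4, between 0.388 and 1.86 CPM in the other Prmt5 KO libraries and between 0.446 and 0.88 CPM in Control. Prmt5 KO 4, where it was high, also had the highest Ddit3, Ppp1r15a, Atf5, Asns, Slc7a5 and Slc7a11. The same library ranked 7 of 8 for Slc3a2 and 5 of 8 for Trib3 and Atf4.

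Among ATF4 targets of amino acid and folate metabolism, 14 of 14 were tested, 0 passed in edgeR and 1 was lower at an unadjusted p under 0.05, with a median log2 fold change of -0.13. Mthfd2, a mitochondrial folate enzyme, was at 28.4, 49.8, 26.8 and 20.2 CPM in Prmt5 KO 1 to 4, and at 81.3, 53.1, 67.5 and 91.1 CPM in Control 1 to 4. All Prmt5 KO libraries were below all Control libraries (log2 fold change -1.23, 95% interval -1.94 to -0.52; adjusted p = 0.296 in edgeR and 0.0277 in DESeq2). Gpt2, a mitochondrial alanine aminotransferase, was at a log2 fold change of -0.99 (edgeR adjusted p = 0.638). Mthfd2 and Sesn2, both counted as ATF4 targets, thus lay on opposite sides.

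Of 12 other amino acid transporters 9 were tested and 0 passed in edgeR, also 0 at an unadjusted p under 0.05; 8 of the 9 lay above 0, the median log2 fold change being 0.31, where 52.7% of all genes tested were above 0. Slc1a5, the glutamine transporter, was at 57.6, 43.2, 28.4 and 8.97 CPM in Prmt5 KO 1 to 4, and at 12.5, 14.7, 21.9 and 17.8 CPM in Control 1 to 4. Prmt5 KO 4 was the lowest of the 8 and Prmt5 KO 1 to 3 the highest (log2 fold change 1.05, edgeR adjusted p = 0.626). Slc38a1, another glutamine carrier, was at 0.32 (edgeR adjusted p = 0.733).

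All 19 genes for cytosolic aminoacyl-tRNA synthetases and the tRNA exporter Xpot, many of them ATF4 targets, were tested. In edgeR 0 passed, 1 was higher and 1 lower at an unadjusted p under 0.05, and the median log2 fold change was 0.045. Gars, for glycine, was at 368 ± 45.1 CPM in Prmt5 KO and 459.7 ± 32.1 CPM in Control, and Hars, for histidine, at 206 ± 23.7 CPM in Prmt5 KO and 153 ± 36.1 CPM in Control (SD, n = 4 each; edgeR adjusted p = 0.558 and 0.596). For Hars 9.8% of the transcript overlaps Hars2 on the opposite strand.

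Of 18 listed secreted and other targets of ATF4 or CHOP, 14 were tested, 0 passed in edgeR and 2 were lower at an unadjusted p under 0.05, with a median log2 fold change of 0.15. The stress hormone genes Gdf15 and Stc2 did not pass the filter. Dusp4, a phosphatase of MAP kinases, was at 26.9 ± 5.73 CPM in Prmt5 KO and 49.1 ± 5.72 CPM in Control (SD, n = 4 each; log2 fold change -0.87, edgeR adjusted p = 0.465), with no overlap of the groups. Dnajb9, a chaperone of the endoplasmic reticulum, was at -0.96 (edgeR adjusted p = 0.597).

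The ATF6 and XBP1 arms of the unfolded protein response, which act beside the PERK and ATF4 arm, had 18 of 18 genes tested. In edgeR 0 passed and 1 was lower at an unadjusted p under 0.05; 13 lay below 0, the median log2 fold change being -0.16. Hspa5, which encodes the chaperone BiP, was at 837 ± 89 CPM in Prmt5 KO and 1037 ± 249.7 CPM in Control (SD, n = 4 each; log2 fold change -0.31, edgeR adjusted p = 0.657). Creld2, a resident protein of the endoplasmic reticulum, was at -0.79 (edgeR adjusted p = 0.465).

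Other stress programmes gave no calls either, apart from p53. Of 11 tested genes of mitochondrial protein quality control 0 passed in edgeR, also 0 at an unadjusted p under 0.05, with a median log2 fold change of -0.0035; Yme1l1 was at 0.55 and Oma1, whose protease starts a mitochondrial route to eIF2 phosphorylation, at -0.63. Of 12 targets or regulators of NRF2, the factor that shares Slc7a11 with ATF4, 10 were tested and 0 passed in edgeR, also 0 at an unadjusted p under 0.05, with a median of -0.14; G6pdx was at -0.92 and Txn1 at 0.30. Of 12 translation genes outside the pathway 0 passed in edgeR and 1 was lower at an unadjusted p under 0.05, Eif5, at -0.53; Rps6kb1 was at 0.59.

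The list of p53 targets that also belong to stress responses had 10 of 11 genes tested. In edgeR 2 passed, both higher (0.0182% of all genes did), Ccng1 (log2 fold change 1.97, adjusted p = 0.00137) and Mdm2 (1.09, adjusted p = 0.049), and the median was 1.40. The call of Mdm2 held in DESeq2, with median-of-ratios scaling and with no filter, and in no other alternative (adjusted p 0.0501 to 0.76); that of Ccng1 was lost without Control 2 and 3 (edgeR adjusted p = 0.176) and in no other. This list was chosen with earlier results on these libraries known and shares Sesn2, Ddit4 and Gdf15 with the lists above, so it is not independent evidence.

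**Figure D4:**
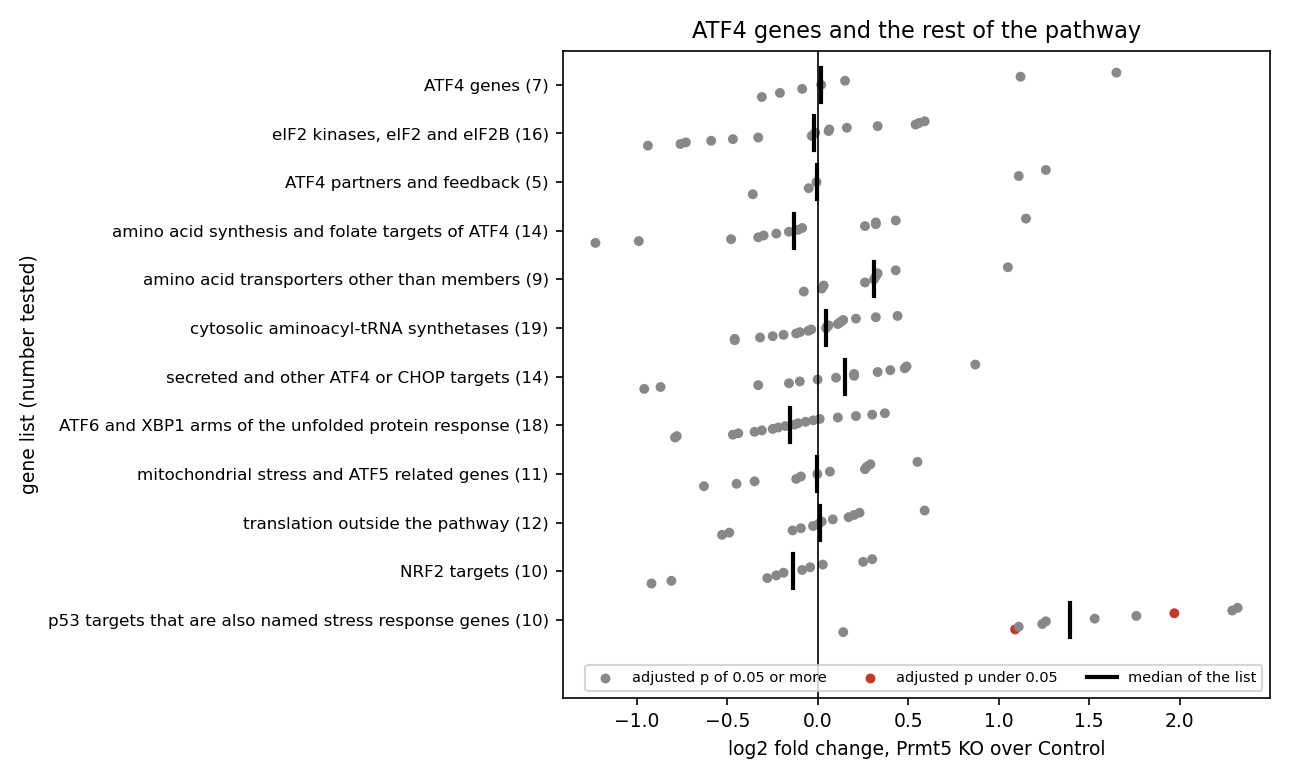
Log2 fold change, Prmt5 KO over Control (horizontal axis), of every tested gene of each list (rows, number tested in brackets); black bars are list medians and red points passed an adjusted p of 0.05. The median of the ATF4 genes is 0.018 and those of the other pathway lists run from -0.16 to 0.31, while that of the p53 list is 1.40.

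Markers of other cells were compared with the same fit. Of 14 somatic gonad and mesonephros markers 7 were tested, 0 passed in edgeR and 3 were higher at an unadjusted p under 0.05. Acta2, of smooth muscle, was at 208 CPM in Prmt5 KO 1, between 2.71 and 5.95 CPM in the other Prmt5 KO libraries and between 3.72 and 7.13 CPM in Control. Mfge8, the most abundant of them, was at 167 ± 10.8 CPM in Prmt5 KO and 145 ± 27.2 CPM in Control (SD, n = 4 each). It made up most of the summed somatic level in every library but Prmt5 KO 1. Nr5a1, Gata4, Lhx9 and Amhr2 did not pass the filter and were each highest in Prmt5 KO 1. The 8 endothelial markers summed to 307, 322, 343 and 420.2 CPM in Prmt5 KO 1 to 4 and 286 to 364 CPM in Control, so Prmt5 KO 4 was the highest of the 8 libraries. Pecam1, which germ cells also express, made up most of this sum, at 276 ± 46.2 CPM in Prmt5 KO and 283 ± 46.1 CPM in Control (SD, n = 4 each). None of the 4 endothelial markers tested passed in edgeR, 1 was higher at an unadjusted p under 0.05, and Tek passed in DESeq2 (adjusted p = 0.043). Tek was at 72.4, 12.2, 53.7 and 71 CPM in Prmt5 KO 1 to 4, and at 4.46 to 28.9 CPM in Control. Flt1, named after its values were seen, was at 21.4 CPM in Prmt5 KO 4, between 0.149 and 0.388 CPM in the other Prmt5 KO libraries and at most 0.549 CPM in Control, whereas Cdh5 was at 0.249 CPM in Prmt5 KO 4 and Kdr had no counts there. The 9 blood and macrophage markers summed to 6.98 to 43.8 CPM in Prmt5 KO, where Prmt5 KO 4 was lowest, and to 21 to 43.1 CPM in Control, and 4 of the 5 listed haemoglobin genes had no counts. Csf1r, the 1 tested, was at 23.7 ± 14.2 CPM in Prmt5 KO and 33.8 ± 9.42 CPM in Control (SD, n = 4 each; edgeR adjusted p = 0.835). In Prmt5 KO 4, Ddit3, Ppp1r15a, Atf5 and Nupr1 were highest, while Slc3a2 ranked 7 of 8 and Trib3 5 of 8. There the somatic markers summed to 176 CPM, inside the Control range, and the endothelial markers to 420.2 CPM, above it. In Prmt5 KO 1, also high for Ddit3 and Ppp1r15a, the somatic markers summed to 777 CPM. The part of either marker list in those values was not tested.

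**Figure D5:**
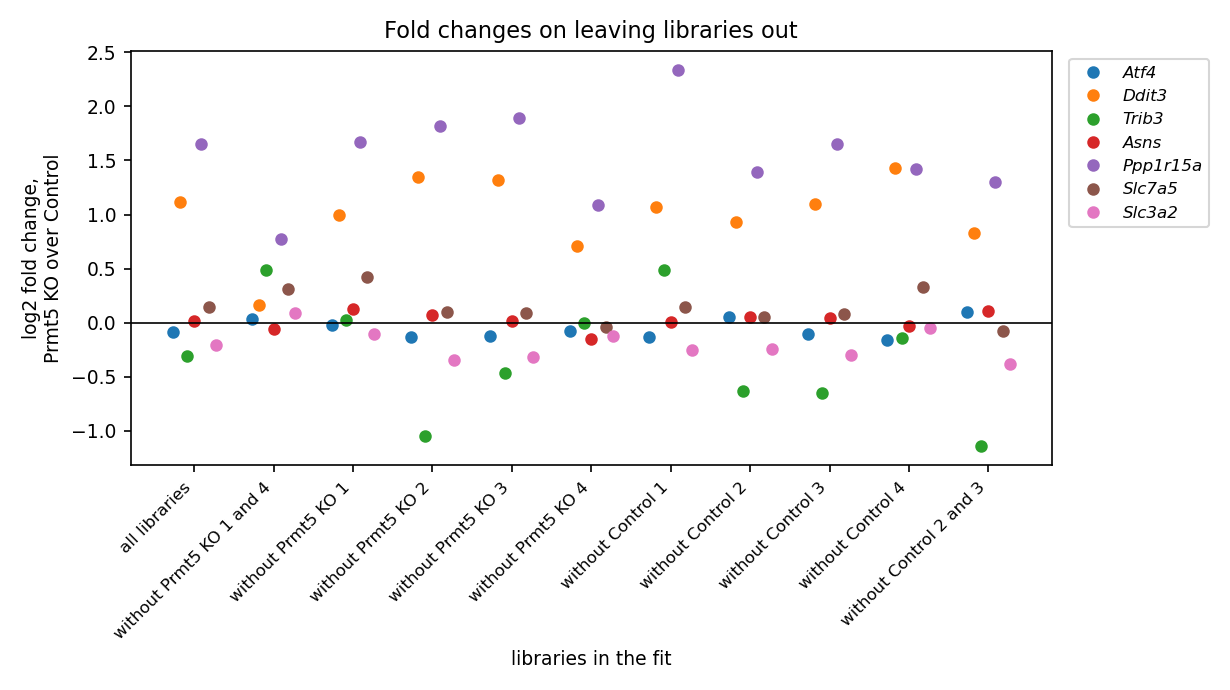
Log2 fold change, Prmt5 KO over Control (vertical axis), of the 7 tested genes (colours) with all libraries and on leaving out the libraries named on the horizontal axis. Ddit3 is at 1.12 with all libraries and 0.16 without Prmt5 KO 1 and 4, Ppp1r15a at 1.65 and 0.77, and Trib3 changes sign.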

How the data were processed

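Per the labels' protocols, RNA came from sorted cells and libraries were made by a published single-cell method. The deposited files hold whole-number read counts per transcript, listed from 1 upward; an unlisted transcript was read as 0. The submitters' processing notes name GRCm38 and mm10; no source used here gives the aligner, counter or strand setting. Of 66262 transcript identifiers 64258 matched GENCODE M21 (97%); unmatched ones held 1.75% to 1.9% of a library's counts. Transcripts of a gene share reads, so the transcript with the highest total stood for the gene.

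Genes passing filterByExpr (minimum count 10, total 15) were scaled by TMM and compared with edgeR's quasi-likelihood test (robust), Benjamini-Hochberg adjusted over all 10990. Intervals are 95%. Alternatives were other scalings, filters, DESeq2, limma voom, left-out libraries, summed transcripts and a replicate block. The tools were edgeR 4.0.16, DESeq2 1.42.0 and limma 3.58.1, under R 4.3.3. Members, lists and tests were chosen with earlier results of these data known. The text names Prmt5, the 10 members, up to 4 called genes of a list (where none was called, the 2 of smallest p), and for each other cell type its most abundant tested marker; others were named after their values were seen. No 2 libraries were duplicates, the highest correlation of log2 CPM being 0.927.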

Additional observations from a re-analysis of the deposited data

Results flagged for a closer look

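Genes named by the rule above, list sums and library measures gave 128 sets of 4 values, 1 set per group. In 12 of these a single library lay far outside the rest, where chance gives about 1 in 20, or 6.4, for independent normal values; named genes also enter list sums, so 6.4 is only a guide. Of the ATF4 genes, Atf5 was the 1 singled out, high in Prmt5 KO 4 (6.48 CPM) and high in Control 3 (4.94 CPM). Prmt5 KO 1 was high for Acta2 (208 CPM), Col1a1 (92.9 CPM), the summed somatic gonad and mesonephros markers (777 CPM), Gpt2 (21.4 CPM), Gars (435 CPM) and the mitochondrial share (11.3%). Ccng1 was low in Prmt5 KO 3 (185 CPM). Among Control libraries, Control 3 was low for Dusp4 (40.6 CPM), Control 2 high for Col1a1 (6.25 CPM) and Control 1 high for Tek (28.9 CPM). Ddit3 and Ppp1r15a were not singled out, since both Prmt5 KO 1 and 4 were high. Genes named after their values were seen were not searched, among them Jun, Nupr1 and Flt1, each highest in Prmt5 KO 4.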

How the results depend on the processing

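No ATF4 gene passed under any of the 19 alternatives, and the lowest adjusted p was 0.33, for Ppp1r15a in DESeq2. Ddit3 and Ppp1r15a were above 0 in all 19, at log2 fold changes from 0.16 to 1.43 and from 0.77 to 2.34. Trib3 ran from -1.14 without Control 2 and 3 to 0.49. Atf4, Asns, Slc7a5 and Slc3a2 each had alternatives of either sign, all between -0.38 and 0.42. The number of genes called, 3 with all libraries, was 107 in DESeq2, 7 with no filter, 1 in limma voom, 1 with summed transcripts, 1 without Prmt5 KO 1 and 4, 0 without Control 2 and 3 (713 at an unadjusted p under 0.05 in edgeR), and 1 to 2 on leaving out single libraries; the cause was not tested. Other pathway genes were called only in DESeq2, which called 2. Prmt5 was not called in limma voom (adjusted p = 0.157) or with summed transcripts (edgeR adjusted p = 0.0631). With the replicate number as a block 1 gene was called, Ccng1 but not Prmt5 or Mdm2 (edgeR adjusted p = 0.13 and 0.155), and no ATF4 gene (Ppp1r15a at 1.72, edgeR adjusted p = 0.603). The labels give no reason to pair libraries, and same-numbered libraries deviated together with correlations of only 0.002 to 0.069; 3 of the 4 Prmt5 KO libraries correlated best with their own number. Atf5 and Slc7a11 had few counts, and their intervals spanned changes in either direction.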
